A study of Bos taurus with 23 samples.

Results

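A set of 99 genes moved in opposite directions with culture time in cultured bovine cord cells, with a lower level at 50 than at 12 days in primary cells and a higher level at 165 than at 21 days in an SV40-immortalized line. They are 99 of the 16094 genes in the count table and of the 8157 genes with a mean of at least 2 CPM in each of 5 groups, CPM being counts scaled to the same library total. The members were chosen by their measured levels, scaled by library totals alone. The means of the WJ and of the BUC libraries at 50 days both had to be at most 0.6 of the 12-day mean, and the mean of the line at 165 days at least 1.5 times its 21-day mean. These 3 ratios, and the levels behind them, are therefore described below without a test.

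The cells were mesenchymal stem cells from the umbilical cord of Holstein cattle and, per the labels' protocols, were all kept in medium with fetal bovine serum. The 5 groups were untreated primary cells at 12 days (n = 3, with library names P3_BUC_Mix, P3_WJ and P4_WJ_Male), primary WJ cells at 50 days (n = 3), primary BUC cells at 50 days (n = 3), and the immortalized line at 21 days (n = 9) and at 165 days (n = 5). The line, labelled WJ-SV40, was immortalized by the SV40 large T antigen, brought in on a transiently transfected plasmid. All 14 line libraries come from this line, so they say nothing of other lines. At 21 days 5 library names carried AM and 4 carried FBS, and at 165 days all 5 carried 2D, so the later time and this tag cannot be told apart. The sources used here do not spell out these tags. Separate cultures or animals are not stated for any libraries, so the spread behind each p-value is that between libraries and may be technical.

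Mesenchymal stem cells are adherent stromal cells of connective tissue. Primary cultures of them have a limited lifespan and slow down as they approach replicative senescence, a lasting growth arrest held by the p53 and retinoblastoma pathways. Large T antigen blocks both pathways by binding their central proteins, which lets cells divide past that point. The genes are known here only by Ensembl numbers. The reference table used gave a symbol for 0 of the 16094, so no function, position or sequence is given for a member, and the mesenchymal identity of the cells was not checked against marker genes.

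Library totals were 8954270 to 15486372 counts in the 12-day primary cells, 1840606 to 5920394 at 50 days, and in the line 4141228 to 11382368 at 21 days and 3753231 to 13540302 at 165 days. The level of the typical gene also moved on this scale. Over the 8157 genes the median ratio was 0.874 for WJ and 0.838 for BUC cells at 50 against 12 days, and 0.818 for the line at 165 against 21 days, a shift of -0.29 on the log2 scale. A rise of 1.5 in the line is thus a larger change against the typical gene than against the library total. At 165 days, replicates 1 and 2 of the line differed from replicates 3 to 5 in several members. The main values of the 165-day line are therefore also given without both, a choice made after seeing the data. In bulk RNA, fewer cells with a transcript and less of it per cell cannot be told apart.

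Falls in primary culture were common and rises in the line were less so. A fall to 0.6 or less was met by 20.5% of the 8157 genes in WJ cells, by 27.7% in BUC cells and by 15.8% (1290 genes) in both, the 2 ratios sharing the same 12-day libraries. The rise in the line was met by 10.5% (859 genes). All conditions together were met by 1.21%. Among the 1290 genes that fell in both kinds of primary cell, 7.67% met the rise in the line, and 41.9% fell in the line to 1/1.5 or less. Over all 8157 genes these shares were 10.5% and 36.2%. The members are therefore a minority among the genes that fell in primary culture, of which more fell than rose in the line. The mirror of the rule, a rise in both primary sets and a fall in the line, was met by 173 genes.

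**Figure D1:**
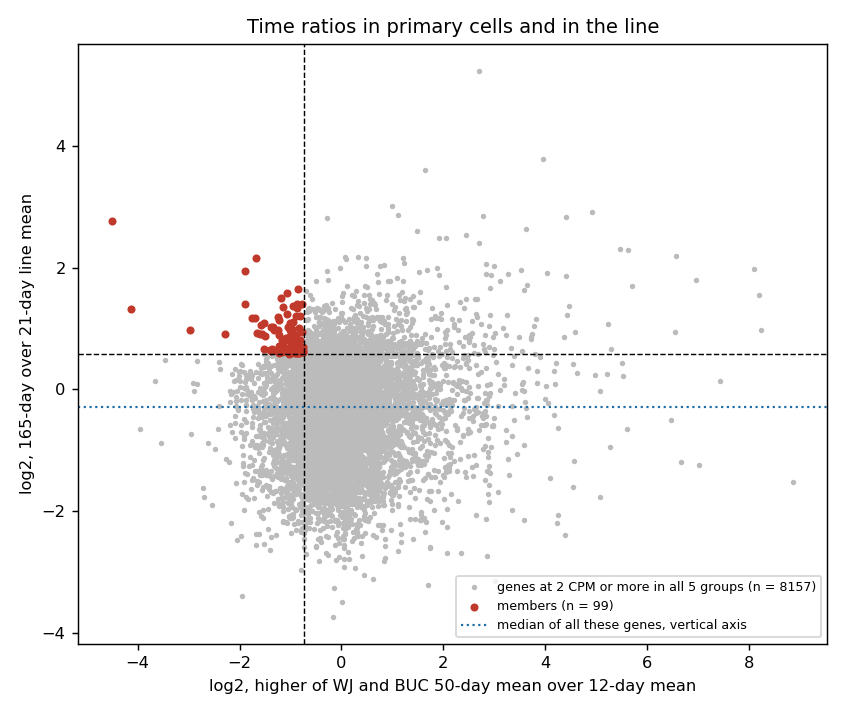
Each point is a gene with at least 2 CPM in all 5 groups (n = 8157). The horizontal axis is the log2 ratio of the higher of the WJ and BUC means at 50 days to the 12-day mean, and the vertical axis the log2 ratio of the line at 165 days to 21 days. Dashed lines are the limits of the rule, the dotted line is the median of all genes on the vertical axis, and the 99 members fill the upper left corner by construction.

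Member levels at 50 days had a median of 0.485 of the 12-day level in WJ cells, with a range from 0.0376 to 0.597, and of 0.403 in BUC cells, with a range from 0.00803 to 0.596. They were at or under 0.5 of the 12-day level in 60 members in WJ cells and in 83 members in BUC cells. In the line the median ratio of 165 to 21 days was 1.76, with a range from 1.5 to 6.82, and 31 members rose by at least 2-fold. Against the median of all 8157 genes these medians came to 0.555, 0.481 and 2.15. All 3 changes were at least 2-fold in 19 members.

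The 12-day libraries lay above all 6 libraries at 50 days in each of the 99 members, against 34.2% of the 8157 genes. In 77 members the lowest of the 5 libraries at 165 days exceeded the highest of the 9 at 21 days, against 9.45% of the genes. The rule acted on the same values, so these counts describe how cleanly the groups part and are read no further. Without replicates 1 and 2 of the 165-day line, the mean of the line at 165 days was above the 21-day mean in 99 of 99 members and at least 1.5 times that mean in 77, with a median ratio of 1.72. The 3 remaining libraries all lay above the 21-day libraries in 89 members, against 15.2% of the 8157 genes.

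The summed level of the members by library follows the course that the rule selected and is given as a description. It was 15700 to 15880 CPM in the 3 libraries at 12 days, 6314 to 6388 in WJ and 4453 to 5002 in BUC cells at 50 days. In the line it was 6676 to 9902 CPM at 21 days and 14380 to 15290 CPM at 165 days, or 14660 to 15290 CPM in replicates 3 to 5. The ranges of these 5 groups do not overlap, which is read no further because the rule acted on the same values. The sum is dominated by few genes, since the 10 most abundant members held 61.4% of it at 12 days and 44.8% in the 165-day line. The median of the members' log2 levels against the 12-day mean, which weights each gene equally, was -1.128 to -1.003 in WJ and -1.46 to -1.27 in BUC libraries. It was -0.52 to -0.06 in the line at 21 days and 0.45 to 0.53 at 165 days. That of all 8157 genes stayed between -0.31 and 0.27 in every library.

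**Figure D2:**
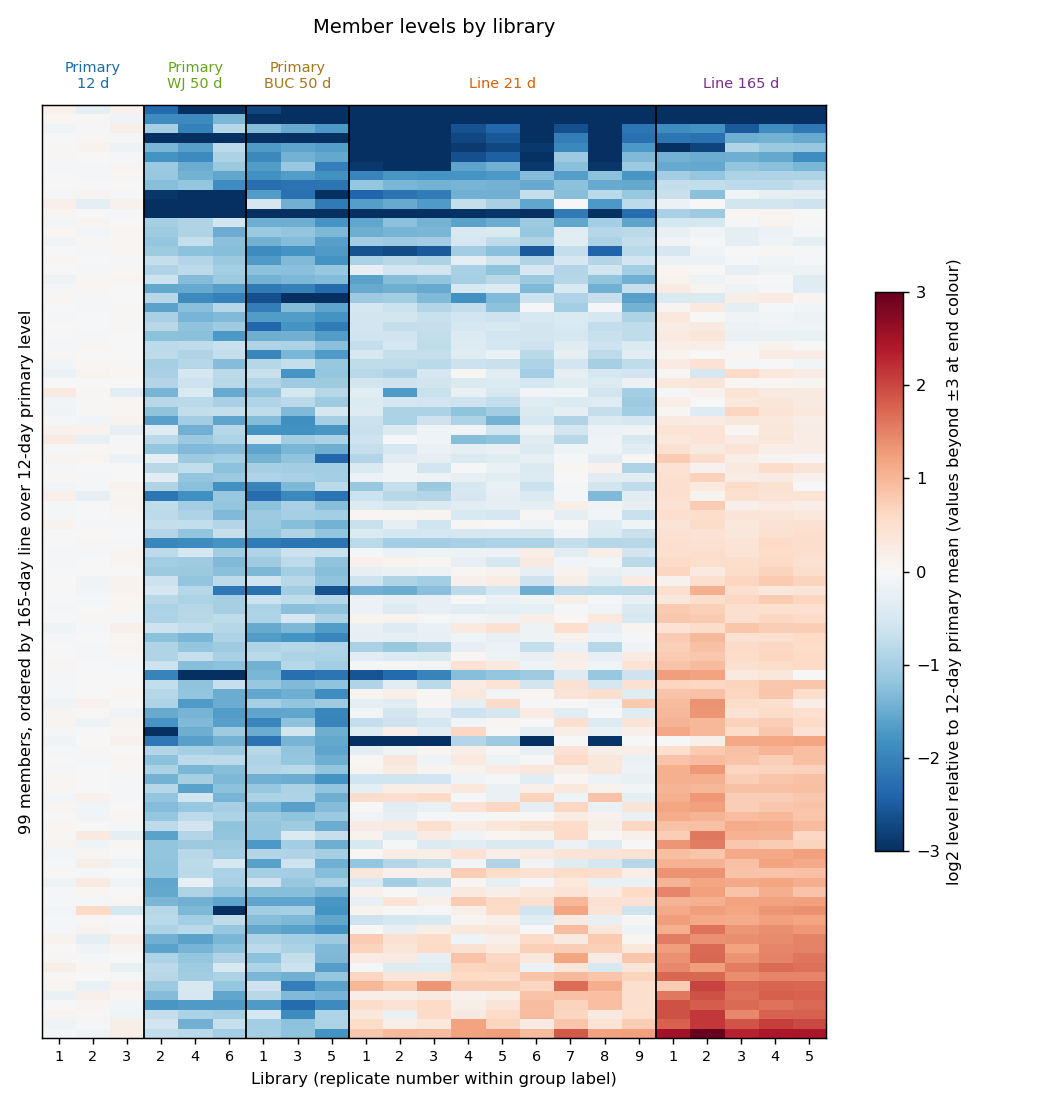
Each row is 1 of the 99 members, each column 1 of the 23 libraries, and the colour is the log2 level relative to the mean of the 12-day primary libraries (blue lower, red higher). Rows run from the lowest to the highest ratio of the 165-day line to the 12-day primary cells. The columns at 50 days are blue throughout, while the columns at 165 days run from blue at the top to red at the bottom.

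The members ranged from low to high abundance. The median over members of the mean of the 5 group means was 51.7 CPM, against 35.9 CPM for the 8157 genes. This mean was at least 100 CPM in 22 members, between 10 and 100 CPM in 66 and under 10 CPM in 11. Replicates of the 12-day cells were close for members as for other genes, with a median coefficient of variation of 4.99% against 6.71%. It was 16.8% in WJ and 13.9% in BUC cells at 50 days, where all genes had 15.65% and 14.86%. In the line it was 21.1% at 21 days and 11.9% at 165 days, where all genes had 19.25% and 17.2%.

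The line at 165 days matched the 12-day primary level in some members and not in others. At 21 days it stood below that level in 68 members and above it in 31, and at least 2-fold below in 19. It already stood above both sets of 50-day primary cells in 89 members, and below both in 6. At 165 days the line was above the 12-day level in 78 members. It was within 1.5-fold of that level in 44, more than 1.5-fold above it in 46 and more than 1.5-fold below it in 9. Without replicates 1 and 2 of the 165-day line, these 4 counts were 76, 49, 40 and 10. The median ratio of the line to the 12-day cells was 0.833 at 21 days, where all genes had 1.17, and 1.46 at 165 days, where all genes had 0.995. Without the same replicates the medians at 165 days were 1.405 for the members and 1.015 for all genes. High levels at 12 and 165 days and low levels at 21 and 50 days were all favoured by the rule. These values, and the counts above the 50-day cells, therefore carry no test.

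The ends of this range differed widely. The member with the lowest ratio stood at 346 ± 51.3 CPM (SD, n = 3) at 12 days, at 7.85 ± 8.25 CPM (SD, n = 9) in the line at 21 days, and at 15.47 ± 4.68 CPM (SD, n = 5) at 165 days, or 0.0447 of the 12-day level. Without replicates 1 and 2 this was 0.0361. It met the rule although the line held little of it at either time. The member with the highest ratio had 24.9 CPM at 12 days and 150 CPM in the 165-day line, 6-fold more, or 5.25-fold more without replicates 1 and 2.

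ENSBTAG00000006037 had the largest smallest change of all members, the smallest of its 3 ratios taken on the log2 scale. In the primary cells at 12 days it stood at 320, 300 and 294 CPM. At 50 days it was at 19.1, 7.85 and 13.6 CPM in the WJ libraries named P10, P15 and P18, and at 2.94, 3.22 and 1.18 CPM in the BUC libraries of the same P numbers, the latter from 11, 15 and 7 counts. These are falls of 22.6-fold in WJ and 125-fold in BUC cells, and the WJ and BUC ranges do not overlap.

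In the line ENSBTAG00000006037 ranged from 13.6 to 70 CPM over the 9 libraries at 21 days, with a median of 32.9. At 165 days it was at 156 and 143 CPM in replicates 1 and 2 and at 317, 320 and 301 CPM in replicates 3 to 5. The 3 higher libraries at 165 days lay within the range of the 12-day primary libraries or less than 1 CPM above it. The rise was 6.82-fold with all 5 libraries and 8.62-fold without replicates 1 and 2.

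ENSBTAG00000003994 had the second largest smallest change. It was at 111, 115 and 116 CPM at 12 days, at 28.4, 7.85 and 9.78 CPM in the WJ and at 44.1, 23.8 and 24.7 CPM in the BUC libraries at 50 days. In the 21-day line it ranged from 18.8 to 87.1 CPM with a median of 50.7. At 165 days replicates 1 and 2, at 270 and 264 CPM, were the high libraries here, while replicates 3 to 5 stood at 140, 144 and 113 CPM. The contrast of replicates 1 and 2 with replicates 3 to 5 was thus the reverse of that in ENSBTAG00000006037. The rise was 3.86-fold with all 5 libraries and 2.74-fold without replicates 1 and 2.

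**Figure D3:**
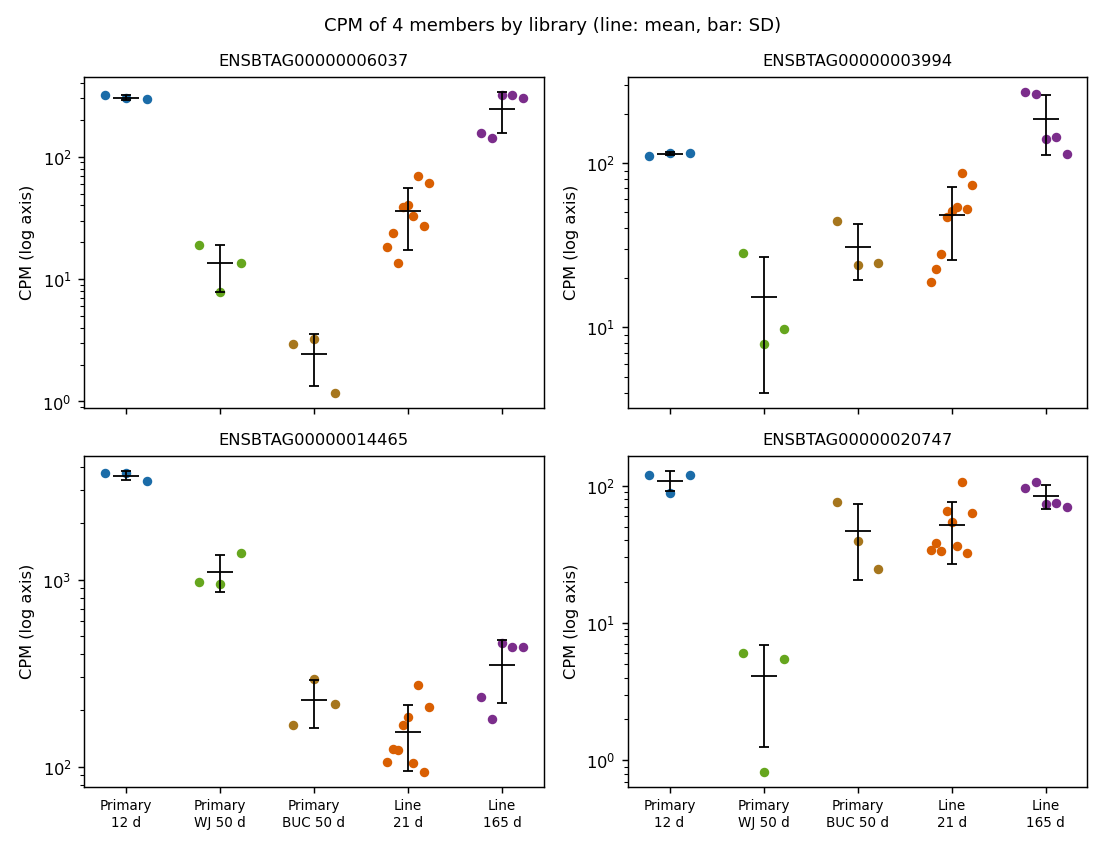
CPM on log axes of 4 members in the 23 libraries. Points are libraries in the order of their replicate numbers, the horizontal mark is the group mean and the bar the SD. In the upper left panel the 12-day and 165-day libraries stand above all others, and the lower panels show WJ above BUC (left) and BUC above WJ (right) at 50 days.

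The rule set no order between WJ and BUC cells at 50 days, so this difference could be tested. With edgeR's quasi-likelihood test on the 6 libraries and Benjamini-Hochberg adjustment over all 9075 genes tested, 16 members were higher in WJ cells and 1 was lower. All 99 members were among the genes tested. Higher in WJ cells were 16.2% of the members and 10.7% of all genes, and lower were 1.01% of the members and 13.6% of all genes. In either direction 17.2% of the members and 24.3% of all genes were called. These shares are a description of the counts, with no test of their difference. The rule used the means of the same 6 libraries. The contrast of members with all genes, in these shares and in the estimates that follow, is therefore read no further. The estimated difference was positive in 71 of the 99 members, against 51.2% of all genes, and its median was 0.15 (log2, WJ over BUC), against 0.01. The count of 16 depended on single libraries and was 8 without the WJ library P10, 10 without the BUC library P15 and 9 without the BUC library P18. The calls over all genes also dropped in these 3 fits. They were 638 of 9312, 729 of 9331 and 769 of 9365 genes higher in WJ, in place of 970 of 9075. The number of members called lower was 2 without the WJ library P10 and 3 without the BUC library P18. Of all genes, 956 and 1113 were lower in these 2 fits, in place of 1231.

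Each of the 16 members called higher in WJ cells was higher in all 3 WJ than in all 3 BUC libraries. The test picked them by this difference, so the count is read no further. Their log2 differences ran from 0.44 to 2.48 with a median of 0.67. At 50 days their WJ level had a median of 0.467 of the 12-day level and their BUC level of 0.297. At 12 days the ratio of the mean of the 2 WJ libraries to the BUC library, whose name also reads Mix, was 0.89 to 1.14 in these 16 members and above 1 in 10 of them. At 50 days the ratio of the WJ to the BUC mean was 1.4 to 5.52. The 16 were picked by their difference at 50 days and not at 12 days, and only 1 library was named BUC at 12 days. The difference between those ratios was not tested.

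The highest level in primary cells among these was that of ENSBTAG00000014465, which had the smallest adjusted p of the 16 and was chosen for mention after its values were seen. It stood at 3715 CPM in the BUC library and at 3686 and 3351 CPM in the WJ libraries at 12 days, and was the most abundant member there. At 50 days it was at 972, 948 and 1390 CPM in WJ and at 166, 295 and 217 CPM in BUC cells. The log2 difference was 2.24 (SE 0.25, edgeR adjusted p = 0.00023), and the 2 sets do not overlap. In the line it ranged from 94.2 to 275 CPM at 21 days with a median of 125, and stood at 237, 181, 456, 434 and 436 CPM at 165 days, so replicates 1 and 2 overlapped the 21-day range. Its level in the 165-day line was 0.0973 of that in the 12-day cells, or 0.123 without replicates 1 and 2, and lower than in each WJ library at 50 days. For ENSBTAG00000006037, also higher in WJ cells, the log2 difference was 2.48, its standard error 0.43 and its adjusted p 0.00286 by edgeR.

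ENSBTAG00000020747 was the only member called lower in WJ cells and is named for that, after its values were seen. At 12 days it stood at 120, 87.9 and 119 CPM. The WJ libraries at 50 days had 6.03, 0.826 and 5.43 CPM, from 24, 2 and 10 counts, and the BUC libraries had 76.1, 39.5 and 24.8 CPM. Its log2 difference of WJ against BUC cells was -3.48 (SE 0.54, edgeR adjusted p = 0.00162). The line ranged from 32.4 to 107 CPM at 21 days with a median of 37.9, and from 70.2 to 107 CPM at 165 days, so both times of the line lay above all 3 WJ libraries. The line's times overlapped, and the rise of 1.63-fold was 1.41-fold without replicates 1 and 2 of the 165-day line.

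**Figure D4:**
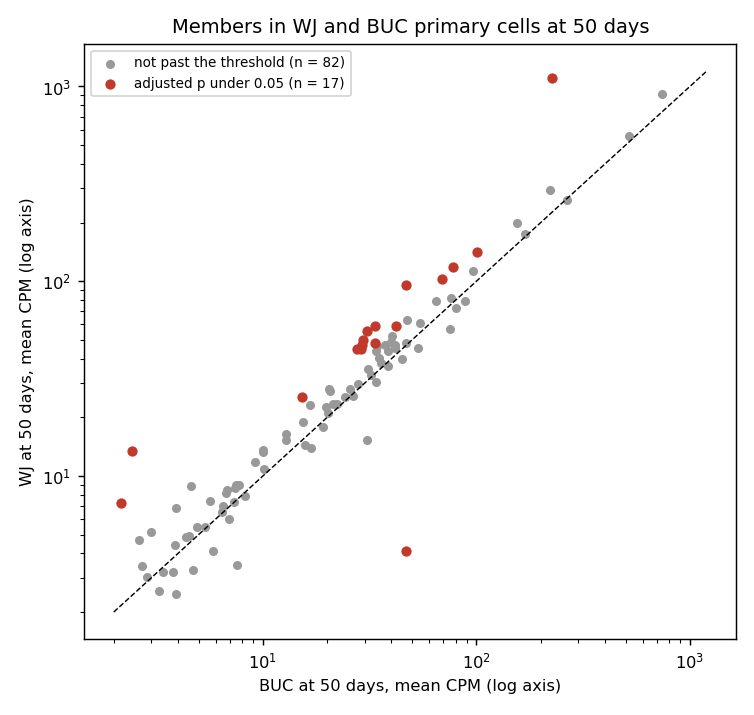
Mean CPM of the 99 members in WJ (vertical) and BUC (horizontal) primary cells at 50 days, n = 3 libraries each, on log axes. The 17 members with an adjusted p under 0.05 are red, 16 of them above the dashed line of equal levels and 1 below it.

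Whether the members kept falling within the 50-day libraries was asked through the P number of the library names, 10, 15 and 18 in both WJ and BUC cells. The slope on this number within WJ and BUC cells does not enter the means that the rule used. The WJ library of P18 is named P18_WJ_F, while no other library name at 50 days ends in F. In WJ cells the highest P number and this letter cannot be told apart. No member passed edgeR's quasi-likelihood test in either direction, rising or falling, and neither did any of the 9075 genes, a share of 0% for each direction. At an unadjusted p under 0.05 the same test held 9 members, 9.09% of them, and 7.26% of all genes. DESeq2 called 1 member rising and 1 falling, and of all genes 0.353% rising and 0.0992% falling. The estimated change from P10 to P18 was negative in 58 members and positive in 41, while it was positive in 51% of all genes. Its median was -0.05 on the log2 scale, against 0.01 for all genes. For ENSBTAG00000003994 the estimate was -1.18 (SE 0.32, edgeR adjusted p = 0.417), and for ENSBTAG00000014465 it was 0.56 (SE 0.23, edgeR adjusted p = 0.671). The 6 libraries thus showed no further change of the members with P number past the threshold, and the test does not show that there was none.

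Within the 21-day line the members were unevenly distributed over the libraries. Replicate 7, an FBS library, had 87 of the 99 members above the group mean, and it was the highest of the 9 libraries in 43 members and the lowest in none. Replicates 1, 2 and 3, all AM libraries, had 26, 24 and 20 members above the mean, and the other 5 libraries 45 to 64. Of all 8157 genes, 58% were above their group mean in replicate 7 and 43.8%, 52% and 58.5% in replicates 1 to 3. Replicate 7 was also the deepest library at 21 days, with 11382368 counts, and the part of depth in its high member levels was not tested.

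**Figure D5:**
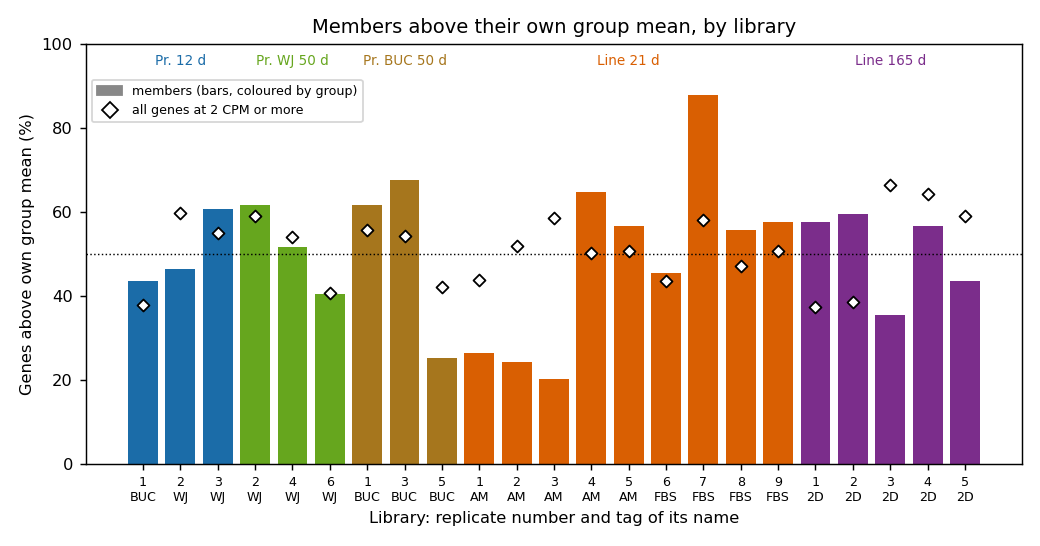
Bars give the share of the 99 members whose log2 level lay above the mean of their own group in each library, and diamonds the share of the 8157 genes. Replicate 7 of the 21-day line stands at 87 of 99 members, and replicates 1 to 3 at 20 to 26, while their diamonds lie between 43.8% and 58.5%.

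The AM and FBS tags at 21 days were not used by the rule, but the rule used the mean of the same 9 libraries. The contrast of members with all genes in the results that follow is therefore read no further. With edgeR's quasi-likelihood test on these 9 libraries and adjustment over all 10597 genes tested, no member was higher and 1 was lower in AM, while 0.368% of all genes were higher and 0.0566% lower. At an unadjusted p under 0.05 the test held 11 members, 11.1% of them, and 9.45% of all genes. DESeq2 called 0 members higher and 2 lower, and of all genes 1.35% higher and 0.538% lower. The estimated difference of AM against FBS was negative in 83 of the 99 members and positive in 16, while it was positive in 47.6% of all genes. Its median was -0.15 on the log2 scale, where all genes had -0.01. Without replicate 7 the difference was negative in 68 members, with a median of -0.08. These are counts of estimates, and nearly none of them passed the test.

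The member called lower in AM stood at 195, 194, 207, 187 and 197 CPM in the 5 AM libraries and at 310, 315, 320 and 240 CPM in the 4 FBS libraries, which do not overlap. Its log2 difference was -0.60 (SE 0.11, edgeR adjusted p = 0.0482). The call ended with RLE size factors, without a filter on low counts, and without any one of replicates 1 to 8. Only without replicate 9 was 1 member still called lower. It was chosen for mention after its values were seen, as the only member called. The 165-day line held 570 ± 50.6 CPM of it (SD, n = 5), which was 2.91 times the AM mean and 1.92 times the FBS mean. Over the members, the 165-day mean was at least 1.5 times the AM mean in 95 and at least 1.5 times the FBS mean in 81, and both in 77.

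Wide spread within the line was found in few members, but at 21 days in a larger share of them than of all genes. A coefficient of variation above 50% was found in 8 members at 21 days, 8.08% of them against 3.84% of all genes, and in 1 member at 165 days, against 4.77% of all genes. The widest at 21 days among the 4 most abundant members was one that ranged from 73.2 to 852 CPM with a median of 110. It was at 458 and 398.5 CPM in replicates 4 and 5 (AM) and at 852 and 846 CPM in replicates 7 and 9 (FBS). The other AM libraries held 73.2 to 79.3 CPM and the other FBS libraries 107 and 110 CPM, so both tags had high and low libraries. This member stood at 842 to 1918 CPM at 165 days. Its levels at 12 days were 786 to 933 CPM, which lie within the range spanned by the 21-day and 165-day line.

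The choice of members depended on how libraries were scaled. With TMM-scaled library sizes the same limits were met by 230 genes, 89 of them among the 99 members, and with RLE size factors by 156 genes, 63 of them among the members. Under both scalings each of the 99 members was lower at 50 than at 12 days in WJ and in BUC cells and higher at 165 than at 21 days in the line. The median rise in the line was 2.2-fold with TMM and 2.18-fold with RLE, in place of 1.76-fold, and the rise of at least 1.5 was met by all 99 under both. The fall to 0.6 or less in both primary sets was met by 90 members with TMM and by 63 with RLE. With TMM the 21-day line was below the 12-day level in 87 members in place of 68, and the 165-day line above it in 74 in place of 78.

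Many members lay close to the limits. Of the 99, 41 were within 0.1 on the log2 scale of at least 1 limit, and 77 further genes missed the rule by less than that. The 3 members nearest the inside had a line ratio of 1.5, a WJ ratio of 0.597 and a BUC ratio of 0.596 as their closest values. The 3 genes nearest the outside had a line ratio of 1.499, a BUC ratio of 0.6025 and a WJ ratio of 0.6033. The number 99 is therefore set by where the limits stand.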

How the data were processed

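Poly(A) RNA of 23 libraries was sequenced as single reads by bulk MARS-Seq, which counts transcripts from their 3′ ends, per the labels' protocols. The deposited table holds raw counts per Ensembl gene, whole numbers that were not normalized. The submitters' processing notes name cutadapt, STAR, HTSeq, DESeq and the build ARS-UCD1.2, with no role or version. For annotation release, strand use and molecular identifiers, the treatment is not given in the sources used here. Overlapping or near-identical genes may therefore share counts, and counts may not be independent molecules.

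Groups came from titles and library names, and each column was matched by its title. CPM was count over column total. The members, lists and tests were chosen with earlier results of these data known. Tests used edgeR 4.0.16 in R 4.3.3 (TMM, filterByExpr, glmQLFit and glmQLFTest), with Benjamini-Hochberg adjustment over all genes tested and a threshold of 0.05, and were tested on simulated data first. Standard errors come from the quasi-likelihood F. Alternatives were DESeq2 1.42.0, other scalings, filters and group means, a replicate block, and leaving out libraries. Log2 levels per library add 0.5 to each count. No pair of replicates agreed within counting noise (smallest chi-square per degree of freedom 2.85, genes with at least 10 counts).

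The rule for named genes takes the members with the largest smallest change, the most abundant ones and the called members with the smallest adjusted p in each direction. It allows 2 IDs where no gene has a symbol, which are the first 2 by change. The other 2 IDs printed, the called members with the smallest adjusted p in each direction between WJ and BUC cells, were added after values were seen. The gene lists could not be run. No column was left without a sample.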

Additional observations from a re-analysis of the deposited data

How the results depend on the processing

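The number of genes meeting the rule was 99, and moved to 230 with TMM-scaled library sizes and to 156 with RLE size factors. It stayed between 78 and 120 with a floor of 1 or 5 CPM, group medians, AM or FBS libraries only at 21 days, or both doubted 165-day libraries left out, and between 93 and 106 when each library was left out in turn. For WJ against BUC, 16 members were higher and 1 lower in WJ. Leaving out each of the 6 libraries gave 8 to 13 members higher and 1 to 3 lower. Over all genes these fits gave 638 to 885 higher and 956 to 1194 lower, in place of 970 and 1231. For AM against FBS, 1 member was lower in AM, and 2 were with DESeq2, 0 with RLE size factors, 0 without a filter and 0 to 1 when each library was left out. For the P number, DESeq2 called 1 member rising and 1 falling, and without a filter 1 fell. The cause of these shifts was not tested. Same-numbered libraries were not consistently paired by the data. Their deviations correlated at 0.486, -0.52, 0.521 and 0.503 for AM and FBS, with 2 of 8 libraries closest to their own number. For WJ and BUC they correlated from -0.113 to 0.132, with 2 of 6. With the replicate block 11 members were higher and 2 lower in WJ, and of all genes 871 and 1166. In that setting 0 members and 0 of all genes were lower in AM. Depth limits the lowest members, since 21 had a group mean under 5 CPM and the shallowest library held 1840606 counts.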
